A study of Homo sapiens with 8 samples.

Results

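The AP-1 family members other than FOS and JUN were followed in SK-UT-1 cells treated with the BRD9 inhibitor TP-472. They were chosen by name: FOSB, FOSL1, FOSL2, JUNB, JUND, ATF3, BATF3, MAFF, MAFG and MAFK, which are 10 of the 60282 genes listed in the count table. All 10 were among the 14073 genes that passed the filter on low counts, which required more than 1 CPM (read counts normalised for library size, here with TMM scaling) in at least 4 libraries.

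SK-UT-1 is an established human line of uterine leiomyosarcoma, a cancer of the smooth muscle of the uterus, and TP-472 is a small molecule that blocks the bromodomain of BRD9, a subunit of a SWI/SNF chromatin remodelling complex. One group received TP-472 at 5 µM for 48 h and the other the vehicle, DMSO, with 4 RNA-seq libraries in each group and no genetic change named in the labels of either. Total counts ran from 32574716 to 36634184 in the vehicle libraries and from 36246466 to 38545695 in the TP-472 libraries. The methods of the study speak of biological replicates in general, and nothing in the labels says that these libraries came from separate cultures, so the p-values measure the spread between these libraries of a single line, which may be technical.

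AP-1 is a family of transcription factors that bind DNA as dimers through a basic region and a leucine zipper. FOS proteins cannot pair with each other and need a JUN protein, whereas JUN proteins can also pair among themselves. ATF3 and BATF3 join JUN proteins and can hold their targets down as well as up, and the small MAF proteins MAFF, MAFG and MAFK lack a domain that activates transcription and depend on partners such as NRF2 (gene NFE2L2) or BACH1. Several of these genes are immediate early or stress genes, which are switched on soon after a stimulus without new protein synthesis.

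The promoters of 7 of the 10 members were read from RefSeq (build GRCh38.p14), in windows of 300 bases that reach from 250 bases before to 50 bases after each of 9 start sites. On both strands they were searched for the AP-1 site TGACTCA, the cyclic AMP response element TGACGTCA and its shorter form ACGTCA, which lies within it. The pattern TGACNNNGC and the CArG box bound by SRF were searched for as well. The stretches below are shown because they match sequences that AP-1 and ATF proteins are known to bind. Binding at these positions was not tested. Capitals mark the match, and each stretch is written 5′ to 3′ on the strand of the gene.
MAFF, chr22:38201930-38201957, plus strand, match at position −54 from the start site: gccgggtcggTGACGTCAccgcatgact
JUND, chr19:18281790-18281847, minus strand, match at position −200: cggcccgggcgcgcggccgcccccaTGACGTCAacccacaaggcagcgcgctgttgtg
JUND, chr19:18281679-18281734, minus strand, match at position −87: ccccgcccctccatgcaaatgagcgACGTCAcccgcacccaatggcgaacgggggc
FOSB, chr19:45467911-45467966, plus strand, match on the opposite strand at position −60: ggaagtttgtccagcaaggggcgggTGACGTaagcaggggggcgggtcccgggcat
FOSL2, chr2:28392782-28392807, plus strand, match on the opposite strand at position −66: agtctggggtTGACGTgagtgaatcc
FOSL2, chr2:28392852-28392878, plus strand, match at position 5: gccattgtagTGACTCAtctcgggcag
MAFG, chr17:81927717-81927742, minus strand, match on the opposite strand at position 4: aaacatcatgTGACGTctgtggagcg

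The full element TGACGTCA was found in 2 of the 9 windows, that of JUND and that of the first of the MAFF start sites, against 1.85% of 35116 promoters of the same length. ACGTCA occurred in 7.98% of promoters, TGACTCA in 4.95%, TGACNNNGC in 13.3% and the CArG box in 1.29%. None of the 5 motifs was found in the windows of ATF3 or JUNB or at the second start site of MAFF, which says only that these letters are not there. TGACNNNGC was found in the same 2 windows, and the CArG box in none of the 9. For MAFF, FOSL2 and MAFG an annotated GENCODE exon overlaps the match or flanks longer than those printed. Whether it reaches the printed stretch was not tested. The stretches of JUND and FOSB overlap no such exon. The MAFG stretch lies outside the GENCODE span given for MAFG below. The sites are a description of the sequence. MAFF, with a full element, was higher after TP-472, and JUND, also with one, was not called in either direction.

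Vehicle replicate 3 stood apart from the other 7 libraries, and this bears on each value below. Its median Spearman correlation with the other vehicle libraries was 0.914, whereas vehicle replicates 1, 2 and 4 had 0.988 to 0.989. Within the TP-472 group the median correlation was 0.993 to 0.997. In vehicle replicate 3 the level of a gene relative to the mean library climbed by 0.706 on the log2 scale for every 10 percentage points of GC content, whereas the slope lay between −0.195 and −0.035 in the other libraries.

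The library gave the highest vehicle level for 10 of 10 members, against 43.3% of all genes tested. Its ratio to the mean of the other vehicle libraries ran from 1.12 for ATF3 to 4.59 for JUND, whose transcripts had the highest GC content of the members (69.7%). The GC content of the members lay between 50.5% and 69.7%, above the median of 49.1% over all genes tested. Across the 10 members the log2 ratio of vehicle replicate 3 and the GC content had a Pearson correlation of 0.79, as a description of points that share the same 4 libraries. Each member is therefore given with this library and without it, as are the calls among other genes that it changes, and its part in each of them was not tested further than that and in a fit with the GC trend removed.

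**Figure D1:**
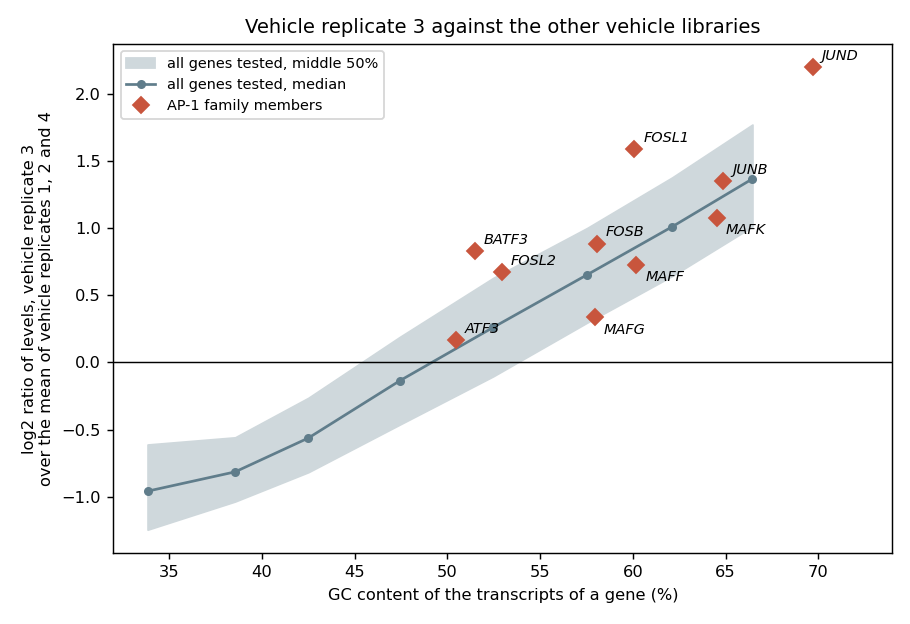
GC content of each gene (x axis, %) against the log2 ratio of its level in vehicle replicate 3 to the mean of vehicle replicates 1, 2 and 4 (y axis). Diamonds are the 10 members, the line joins the medians of GC bins over all genes tested and the band holds the middle 50% of genes; all members lie above 0 and JUND lies highest, at 2.20.

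The comparison of TP-472 with vehicle asked which family members the inhibitor moved. FOSL1, ATF3, BATF3 and MAFF rose (4 of 10, against 12.0% of all genes tested that were called higher), and FOSL2 fell (1 of 10, against 14.9% called lower). FOSB, JUNB, JUND, MAFG and MAFK were not called. A gene was called at an adjusted p under 0.05 in edgeR's quasi-likelihood test, with Benjamini-Hochberg adjustment over all 14073 genes, and a change over 1.5-fold. The groups did not overlap for 7 of 10 members, against 45.4% of all genes tested.

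The median log2 fold change of the members was 0.48, beside −0.026 over all genes tested. Without vehicle replicate 3, 6 members were called higher (12.0% of all genes were in that fit) and 0 lower (13.4% of all genes), and the median of the members was 0.75. FOSB and JUNB joined the higher members there, and FOSL2 stayed below vehicle with a change under the fold limit. The groups then did not overlap for 9 members, against 58.5% of all genes.

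**Figure D2:**
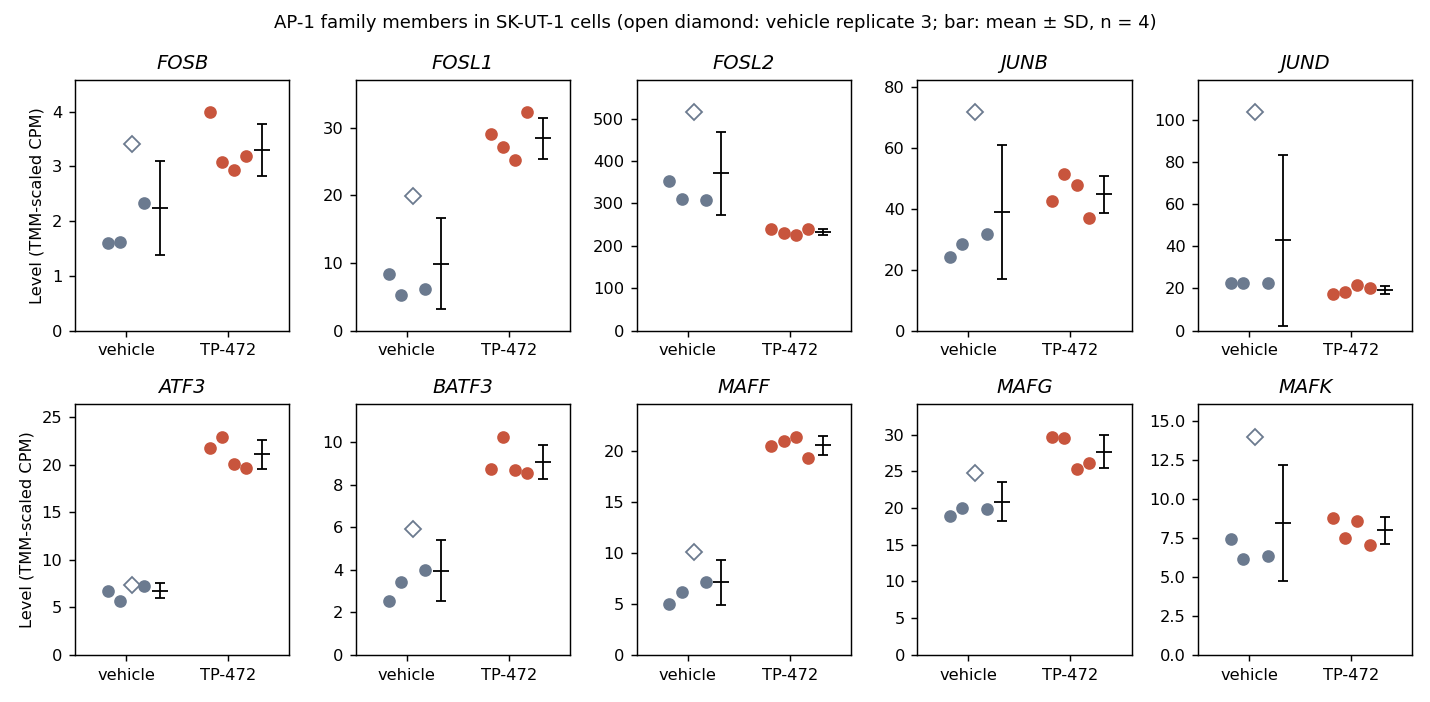
Level of each member (TMM-scaled CPM, linear axis from 0) in the 4 vehicle and 4 TP-472 libraries. Points are single libraries, the open diamond is vehicle replicate 3, and the bars give the mean ± SD; the groups of FOSL1, ATF3, BATF3 and MAFF are apart with TP-472 higher, and the diamond is the highest vehicle point in every panel.

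**Figure D3:**
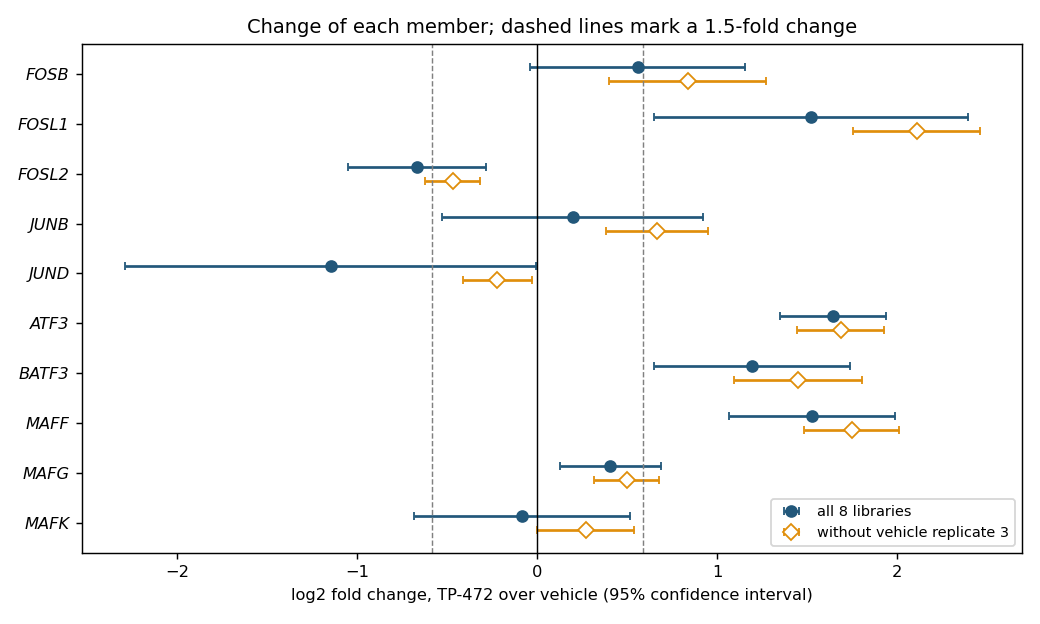
log2 fold change of each member (x axis, TP-472 over vehicle, with its 95% confidence interval) from all 8 libraries and from the fit without vehicle replicate 3. Dashed lines mark 1.5-fold; ATF3 is at 1.64 with all libraries and 1.69 without the replicate, whereas JUND moves from −1.15 to −0.22.

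Among the FOS proteins, FOSL1 (FRA-1, ENSG00000175592.9, chr11:65892049-65900573, minus strand) is the member best known from invasive tumours. It stood at 8.37, 5.26, 19.8 and 6.15 CPM in vehicle replicates 1 to 4 and at 29.04, 27.2, 25.2 and 32.3 CPM in TP-472 replicates 1 to 4. The lowest treated library was above the highest vehicle library, vehicle replicate 3, which itself held about 3.01 times the mean of the other vehicle libraries. The mean rose from 9.90 ± 6.75 to 28.4 ± 3.01 CPM (SD, n = 4), a log2 fold change of 1.52 (SE 0.39, edgeR adjusted p = 0.0158), which is 2.87-fold. Without vehicle replicate 3 the log2 fold change was 2.11 (edgeR adjusted p = 7.00e-06). FOSL1 was called in all 22 alternative settings, with log2 fold changes from 1.31 to 2.21 and adjusted p-values from 2.14e-09 to 0.0487.

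FOSL2 (FRA-2, ENSG00000075426.12, chr2:28392448-28417312, plus strand), the other FOS-related antigen, moved the opposite way. It was at 353, 311, 515 and 307 CPM in the vehicle libraries and at 239, 231, 225 and 240 CPM with TP-472. All treated libraries were below all vehicle libraries and lay within a narrow range. FOSL2 fell by 0.67 on the log2 scale (SE 0.17, edgeR adjusted p = 0.0159), from 372 ± 97.8 to 234 ± 6.93 CPM (SD, n = 4), or 1.59-fold. In the fit without vehicle replicate 3 it was −0.47 (edgeR adjusted p = 3.17e-04), below vehicle but short of 1.5-fold, so the call was lost although the adjusted p became smaller. The call held in 18 of 22 alternatives, with adjusted p-values from 4.19e-06 to 0.0511.

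FOSB (ENSG00000125740.14, chr19:45467995-45475179, plus strand), which in neurons is known for its lasting spliced form, was the scarcest member. Its levels were 1.61, 1.61, 3.42 and 2.33 CPM with vehicle and 3.99, 3.07, 2.94 and 3.20 CPM with TP-472, from 56 to 154 counts per library. Vehicle replicate 3 was the sole vehicle library inside the treated range. The log2 fold change was 0.56 (SE 0.26, 95% confidence interval −0.039 to 1.16, edgeR adjusted p = 0.125), and FOSB was not called. Without that library it was 0.83 (edgeR adjusted p = 0.00493) and passed both limits, and over the alternatives the adjusted p ran from 0.00189 to 0.276. FOSB was called higher in 4 of the 21 alternatives that tested it.

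FOS itself, the founding member, stood at 12.2, 12.2, 32.5 and 18.5 CPM in vehicle and 22.0, 24.2, 26.9 and 18.6 CPM in TP-472 libraries. Its groups overlapped through vehicle replicate 3, and its log2 fold change of 0.28 was not called (edgeR adjusted p = 0.488). In the fit without that library FOS was called higher, at 0.68 (edgeR adjusted p = 0.00740).

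Since levels of different genes can be compared only per length, CPM were divided by the summed length of each gene's exons in kilobases (GENCODE annotation on GRCh38). Per kilobase, FOSL2 held 82.8 ± 4.10% of the summed level of FOS, FOSB, FOSL1 and FOSL2 in vehicle and 58.95 ± 0.251% with TP-472 (SD, n = 4). FOSL1 went from 7.69 ± 2.56% to 27.2 ± 2.17%. Vehicle shares of FOSL1 lay between 5.54% and 11.3% and treated shares between 24.9% and 30.0%, so the ranges were far apart, also for vehicle replicate 3. The summed level was 63.4 ± 20.1 CPM per kilobase in vehicle, 53.5 without vehicle replicate 3, and 55.4 ± 1.503 with TP-472. FOSL2 remained the most abundant FOS-branch transcript in every library.

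**Figure D4:**
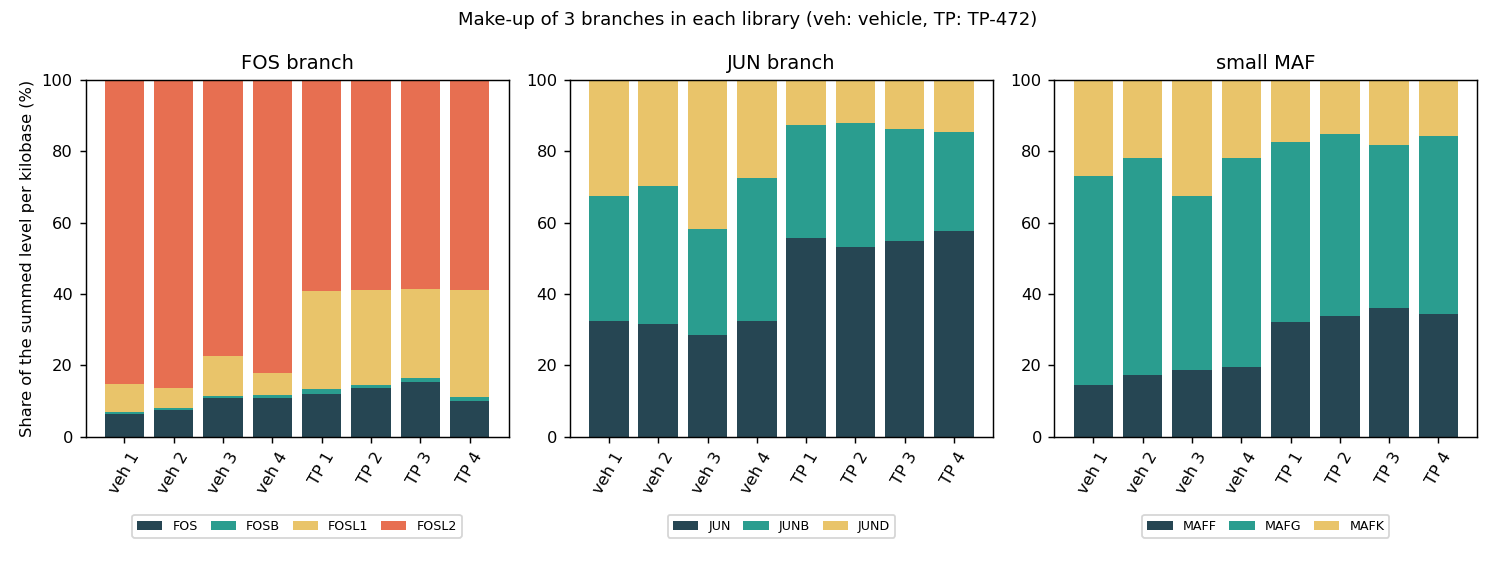
Share of each gene (y axis, % of the summed CPM per kilobase) in the FOS branch, the JUN branch and the small MAF group, in each of the 8 libraries. In every TP-472 library FOSL1, JUN and MAFF take a larger share than in any vehicle library; their mean shares went from 7.69% to 27.2%, from 31.2% to 55.3% and from 17.5% to 34.1%.

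The JUN proteins are the obligate partners of the FOS proteins. JUN rose, from 43.1, 45.7, 133.7 and 49.9 CPM in vehicle to 145.1, 152.7, 162.3 and 150.2 CPM with TP-472. Its groups did not overlap, with vehicle replicate 3 the only vehicle library near the treated ones. The log2 fold change was 1.16 (SE 0.35, edgeR adjusted p = 0.0303), and 1.72 without vehicle replicate 3 (edgeR adjusted p = 3.92e-07). The call held in 15 of 22 alternatives and was lost in the 7 that left out any other single library, with adjusted p-values from 3.66e-10 to 0.0766 and log2 fold changes from 1.00 to 1.72.

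JUNB (ENSG00000171223.6, chr19:12791496-12793315, plus strand), which can oppose JUN in the cell cycle, was at 24.1, 28.5, 71.5 and 31.8 CPM in vehicle and at 42.6, 51.2, 47.7 and 37.0 CPM in TP-472 libraries. The treated libraries were above vehicle replicates 1, 2 and 4 and below vehicle replicate 3. With all libraries the log2 fold change of 0.20 (SE 0.32, edgeR adjusted p = 0.650) was within the spread. Without vehicle replicate 3 it was 0.67 (edgeR adjusted p = 0.00159), and with the GC trend removed from all 8 libraries 0.76 (edgeR adjusted p = 5.87e-04), over a range of adjusted p from 4.57e-05 to 0.961 across the alternatives. JUNB was thus called higher in 4 of 22 alternatives. The exons of JUNB share 259 bases with HOOK2 on the opposite strand, which stood at 17.4 CPM in vehicle and 8.38 CPM with TP-472 (not called), and although the methods of the study describe the libraries as strand-specific, the strand setting of the counting is not given in the sources used here.

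JUND (ENSG00000130522.6, chr19:18279760-18281622, minus strand), the JUN protein most often found in resting cells, was at 22.7, 22.6, 103.6 and 22.4 CPM in vehicle and at 17.4, 18.2, 21.5 and 20.2 CPM with TP-472. All treated libraries were below all vehicle libraries, but 3 vehicle libraries lay close above them and vehicle replicate 3 far above. The log2 fold change was −1.15 (SE 0.51, edgeR adjusted p = 0.103, not called), with a confidence interval from −2.29 to −0.0057. Without vehicle replicate 3 it was −0.22 (edgeR adjusted p = 0.0472), under the fold limit. The adjusted p lay between 0.0192 and 0.218 over the alternatives, and in 1 of the 22, DESeq2, JUND was called lower.

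Per kilobase, JUN held 31.2 ± 1.87% of the JUN branch in vehicle and 55.3 ± 1.82% with TP-472. JUND held 32.9 ± 6.31% and 13.3 ± 1.20%, and JUNB 35.8 ± 4.62% and 31.4 ± 2.91% (SD, n = 4). The shares of JUN and of JUND did not overlap between the groups, whereas those of JUNB did. The summed level was 63.6 CPM per kilobase in vehicle, 40.6 without vehicle replicate 3, and 78.0 with TP-472.

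ATF3 (ENSG00000162772.17, chr1:212565334-212620777, plus strand), a gene of the integrated stress response, showed the largest rise of the 10 members with all libraries and the smallest standard error of the 4 that rose. Its levels were 6.71, 5.66, 7.35 and 7.28 CPM in vehicle and 21.7, 22.9, 20.1 and 19.6 CPM with TP-472. The groups were well apart, and vehicle replicate 3 was level with vehicle replicate 4. The mean went from 6.75 ± 0.781 to 21.1 ± 1.53 CPM (SD, n = 4), a log2 fold change of 1.64 (SE 0.13, edgeR adjusted p = 8.38e-05), or 3.12-fold. It was called in all 22 alternatives, between 1.57 and 1.69, with adjusted p-values from 3.68e-29 to 0.00317.

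BATF3 (ENSG00000123685.9, chr1:212686418-212699985, minus strand), best known for its need in cross-presenting dendritic cells, was at 2.52, 3.45, 5.91 and 3.99 CPM in vehicle and at 8.75, 10.3, 8.71 and 8.56 CPM with TP-472. Again no libraries overlapped between the groups. The log2 fold change was 1.19 (SE 0.24, edgeR adjusted p = 0.00609), or 2.29-fold, and 1.45 without vehicle replicate 3 (edgeR adjusted p = 6.19e-05). All 22 alternatives called it, with adjusted p-values from 4.24e-07 to 0.0231.

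ATF3 and BATF3 are neighbours, with 65.6 kb between them on chromosome 1. NSL1, a kinetochore gene, was the sole other tested gene that lay wholly within a window reaching 100 kb to either side of the pair. Genes that cross the edge of this window were not read. It stood at 45.2 CPM in vehicle and 48.1 CPM with TP-472, and its log2 fold change of 0.088 was not called (edgeR adjusted p = 0.637).

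BATF3 is a gene of leukocytes in normal tissue, so leukocyte markers were read beside it. Of 6 markers, CD3E had no count in any library, PTPRC had at most 0.0282 CPM, and 1 passed the filter, CD68, at 7.53 CPM in vehicle and 10.4 CPM with TP-472 (not called). Their summed level was 7.15 to 8.54 CPM in vehicle and 9.83 to 13.1 CPM in TP-472 libraries, and CD68 was the most abundant. BATF, a close relative of BATF3 in lymphocytes, was at 0 in all 8 libraries. The part of other cells in the BATF3 level was not tested beyond these markers.

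The small MAF proteins were led by MAFF (ENSG00000185022.12, chr22:38200767-38216511, plus strand), the inducible member of the group, known to bind the oxytocin receptor gene in the uterus. It was at 5.02, 6.21, 10.1 and 7.14 CPM in vehicle and at 20.5, 21.0, 21.4 and 19.3 CPM with TP-472. The treated libraries were close together and all were above the vehicle libraries. MAFF rose from 7.12 ± 2.19 to 20.5 ± 0.887 CPM (SD, n = 4), a log2 fold change of 1.53 (SE 0.20, edgeR adjusted p = 9.61e-04), or 2.88-fold, and 1.75 without vehicle replicate 3 (edgeR adjusted p = 4.41e-06). It was called in all 22 alternatives, with adjusted p-values from 1.53e-11 to 0.00529. Its gene span overlaps PLA2G6 on the opposite strand, which fell by 1.59 on the log2 scale, but their exons share 0 bases.

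MAFG (ENSG00000197063.11, chr17:81918270-81927714, minus strand), the most abundant small MAF per kilobase, was at 18.9, 20.1, 24.7 and 19.8 CPM in vehicle and 29.7, 29.5, 25.3 and 26.2 CPM with TP-472. The groups did not overlap, though vehicle replicate 3 came close to the lowest treated library. The log2 fold change of 0.41 (SE 0.12, edgeR adjusted p = 0.0324) was 1.32-fold, short of the fold limit, and 0.50 without vehicle replicate 3 (edgeR adjusted p = 6.46e-04); over the alternatives the adjusted p ran from 1.86e-05 to 0.1002. MAFG passed the fold limit and was called higher in 2 of the 22, at 0.65 with the GC trend removed (edgeR adjusted p = 7.28e-04) and at 0.65 with a replicate block as well (edgeR adjusted p = 0.00358). MAFG shares 105 exon bases with SIRT7 on the same strand, whose log2 fold change of 0.52 was not called either.

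MAFK (ENSG00000198517.10, chr7:1530714-1543043, plus strand), known as a partner of NFE2 in blood cells, was at 7.43, 6.15, 14.01 and 6.35 CPM in vehicle and at 8.83, 7.53, 8.60 and 7.05 CPM with TP-472. These groups overlapped with or without vehicle replicate 3. Its log2 fold change was −0.084 (SE 0.27, 95% confidence interval −0.69 to 0.52, edgeR adjusted p = 0.820) and became 0.27 without that library (edgeR adjusted p = 0.0816). The adjusted p ranged from 0.00374 to 0.996 over the alternatives, none of which called it past the fold limit. Its exons share 809 bases with TMEM184A on the opposite strand, which stood at 0.135 CPM in vehicle and 0.0596 CPM with TP-472 and was not tested.

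The share of MAFF in the summed small MAF level per kilobase was 17.5 ± 2.22% in vehicle and 34.1 ± 1.57% with TP-472. MAFG went from 56.7 ± 5.28% to 49.3 ± 2.37% and MAFK from 25.8 ± 5.06% to 16.7 ± 1.41% (SD, n = 4). The shares of MAFF and of MAFK did not overlap between the groups. The sum was 7.17 CPM per kilobase in vehicle, 6.33 without vehicle replicate 3, and 10.8 with TP-472.

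Per kilobase in vehicle the members ranked FOSL2 (51.9 CPM per kilobase), JUND (23.0), JUNB (21.4), FOSL1 (5.25), MAFG (3.999), MAFK (1.90), ATF3 (1.67), BATF3 (1.46), MAFF (1.27) and FOSB (0.404). The libraries of neighbours in this order overlapped in range, except for JUNB and FOSL1, MAFG and MAFK, and MAFF and FOSB. With TP-472 the order was FOSL2 (32.7 CPM per kilobase), JUNB (24.5), FOSL1 (15.1), JUND (10.4), MAFG (5.30), ATF3 (5.22), MAFF (3.66), BATF3 (3.34), MAFK (1.80) and FOSB (0.594). There only MAFG and ATF3, and MAFF and BATF3, overlapped as neighbours. FOSL2 was first and FOSB last in both groups. Means over vehicle replicates 1, 2 and 4 gave another order. There the vehicle order was FOSL2 (45.2 CPM per kilobase), JUNB (15.4), JUND (12.1), MAFG (3.75), FOSL1 (3.49), ATF3 (1.62), MAFK (1.49), BATF3 (1.22), MAFF (1.09) and FOSB (0.333). JUND and JUNB, FOSL1 and MAFG, and MAFK and ATF3 thus changed places, each a pair whose libraries overlapped in range.

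Across the 8 libraries, BATF3 and MAFF had the highest correlation of log2 CPM among pairs of members (Pearson r = 0.985), and FOSL2 and ATF3 the lowest (r = −0.78). Points from treated and vehicle libraries both enter these values, so a difference between the groups enters each of them. Of all genes whose mean reached 5 CPM, the 3 most like ATF3 were MIR22HG (r = 0.997), AEN and MFSD2A, and those most like MAFF were NOL6 (r = 0.996), CD3EAP and ETS2. For BATF3 they were DDX27 (r = 0.994), CD3EAP and CCDC137, for FOSL1 URB1 (r = 0.995), ZNF551 and LPCAT1, and for FOSL2 SH3PXD2A (r = 0.999), SPTBN1 and MAN2B2. FOSB was most like SUGP1 (r = 0.970), SLC35E1 and TMEM222, JUNB most like RBM42 (r = 0.996), SND1 and MRPL4, and JUND most like MEX3D (r = 0.995), JSRP1 and RTL8A. MAFG had LONRF3 (r = 0.983), SMOX and SYNGR2, and MAFK had EEPD1 (r = 0.984), RAB8A and CCAR2. CD3EAP was the only gene on more than 1 of these lists.

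The rest of the pathway was read from lists of genes chosen from general knowledge, with earlier results of these data known. Of 7 other AP-1 subunits, 6 passed the filter: JUN rose (1 of 6, against 12.0% of all genes called higher), JDP2 and ATF7 fell (2 of 6, against 14.9% called lower), and FOS was not called. JDP2, a repressor that pairs with JUN, fell by 1.11 on the log2 scale, from 22.2 to 10.3 CPM (edgeR adjusted p = 0.0130), with no overlap between the groups, and it was called in all 22 alternatives (adjusted p from 3.09e-06 to 0.0422, −0.75 without vehicle replicate 3). ATF7, a relative of ATF2, fell by 0.97 (edgeR adjusted p = 0.0404), with overlapping groups, and its call held in 13 of 22 alternatives (adjusted p from 0.00602 to 0.110, −0.79 without vehicle replicate 3). The median log2 fold change of the list was −0.36.

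Partners of the small MAF proteins gave 0 calls among 5 genes tested of 6, against 12.0% of all genes called higher and 14.9% called lower. NFE2L2, which encodes NRF2, was at 89.1 CPM in vehicle and 90.9 CPM with TP-472, and BACH1, its repressing counterpart, at 71.5 and 93.3 CPM (edgeR adjusted p = 0.0789). Among 5 other dimer partners 4 were tested and 0 called, while DDIT3 (CHOP) and CEBPB were called higher without vehicle replicate 3 (2 of 4, against 12.0% of all genes in that fit).

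All 12 kinases that act on AP-1 were tested, and 1 was called higher and 4 lower, against 12.0% and 14.9% of all genes. MAP2K1, which encodes MEK1, rose from 43.7 to 69.5 CPM (log2 fold change 0.67, edgeR adjusted p = 0.00383), while MAPK10 (JNK3) fell by 1.54, MAP2K2 (MEK2) by 0.99, RPS6KA2 by 0.97 and MAPK3 (ERK1) by 0.78. MAP2K1 was called in 21 of 22 alternatives, its call being lost with quality weights. It was also not called without vehicle replicate 3 when the GC trend was removed or DESeq2 was used. MAPK10 was called in all 21 alternatives that tested it, MAPK3 in 20 of 22, RPS6KA2 in 14 of 21 and MAP2K2 in 11 of 22. When vehicle replicate 3 was left out, MAP2K2 was at −0.51 and not called, and RPS6KA2 was at −0.60 and still called. The list of 12 then held 1 gene called higher and 3 lower, against 12.0% and 13.4% of all genes in that fit. SRF and the ternary complex factors, which drive immediate early genes through the CArG box, gave 0 calls among 4. ELK4, named after its values were seen, was at −0.49 with all libraries (edgeR adjusted p = 0.0619) and was called lower in the fit without vehicle replicate 3, at −0.60 (edgeR adjusted p = 0.00558), over a range of adjusted p from 1.94e-05 to 0.160 across the alternatives. With the GC trend removed, SRF was called higher and ELK4 lower (1 of 4 each), beside 1897 higher and 2076 lower of all 14073 genes. The kinases had a median log2 fold change of −0.12 and the SRF group of −0.065, which turned to 0.076 without vehicle replicate 3.

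Of 20 other immediate early genes 18 were tested, and 8 rose (12.0% of all genes did) and 0 fell (14.9%), with a median log2 fold change of 0.65. NR4A2 and NR4A3 passed the filter through the TP-472 libraries alone and could only come out higher. Among the other 16 genes, 6 rose and 0 fell, with a median of 0.52. NR4A3, an orphan nuclear receptor, had the largest change of the list, from 0.134 to 4.74 CPM (log2 fold change 5.10, edgeR adjusted p = 3.86e-05). IER3, an early stress gene, rose from 9.16 to 57.3 CPM, KLF10 from 41.0 to 131.0 CPM, CCN2 from 8.91 to 42.5 CPM, NR4A2 from 0.177 to 2.12 CPM and SIK1 from 1.01 to 4.53 CPM. EGR1, the usual representative of this class and named here after its values were seen, stood at 16.8 CPM in vehicle and 15.8 CPM with TP-472 (edgeR adjusted p = 0.890). Without vehicle replicate 3, 13 of the 18 were called higher (12.0% of all genes were in that fit), with a list median of 1.09. NR4A2 and NR4A3 were among them, as was EGR1 at 0.73 (edgeR adjusted p = 0.00397).

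Of 23 textbook AP-1 target genes 14 were tested, and 9 rose and 1 fell, against 12.0% and 14.9% of all genes, with a median log2 fold change of 1.10. MMP1 and IL6 passed the filter through the TP-472 libraries alone. Among the other 12 genes, 7 rose and 1 fell, with a median of 0.95. In the fit without vehicle replicate 3, 10 of the 14 were called higher and 1 lower, against 12.0% and 13.4% of all genes in that fit. MMP1 and IL6 were among the 10. CXCL8, a neutrophil chemokine, rose from 13.2 ± 5.11 to 158.4 ± 11.9 CPM (SD, n = 4, log2 fold change 3.58, edgeR adjusted p = 9.86e-05). HBEGF, a ligand of the EGF receptor, rose from 1.44 to 11.6 CPM, LIF from 8.94 to 26.7 CPM and CCL2 from 3.77 to 12.6 CPM. MMP1, a collagenase, and IL6 were near the limit of detection in vehicle, at 0.0922 and 0.0705 CPM, and rose to 1.44 and 1.92 CPM. The gene that fell was MMP14, a membrane-bound metalloprotease named here after its values were seen, by 1.29 on the log2 scale. The other 9 genes were under the filter, and MMP3, MMP13 and PTGS2 among them had no count in any vehicle library.

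The 10 textbook NRF2 and small MAF target genes were split, with 3 higher and 2 lower (12.0% and 14.9% of all genes) and a median log2 fold change of 0.12. HMOX1 (heme oxygenase 1) rose from 54.0 ± 13.6 to 166.9 ± 3.99 CPM (SD, n = 4, log2 fold change 1.63, edgeR adjusted p = 2.71e-04). SRXN1 and TXNRD1, enzymes of thiol metabolism, rose by log2 fold changes of 1.09 and 0.94. NQO1, a quinone reductase, fell by 0.68, a call held in 18 of 22 alternatives. Leaving out vehicle replicate 3, 3 were called higher and 1 lower (12.0% and 13.4% of all genes in that fit), and the median turned to −0.027.

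**Figure D5:**
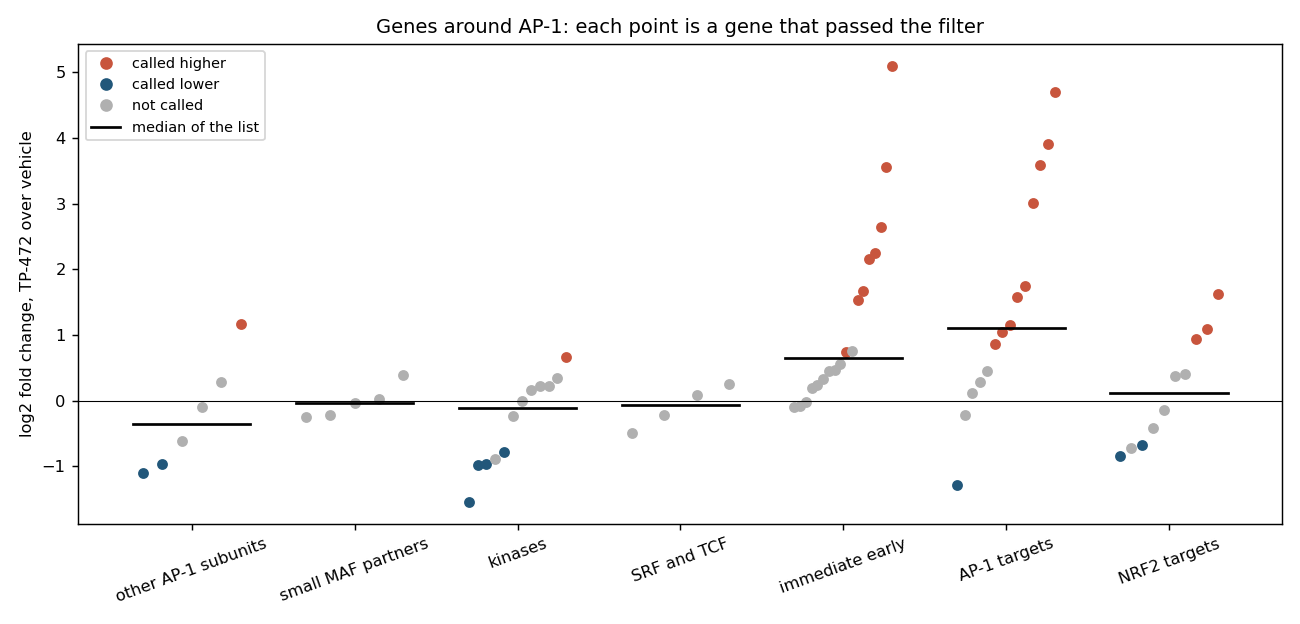
log2 fold change (y axis, TP-472 over vehicle) of each tested gene in 7 lists around AP-1. Points are genes, coloured by call, and bars are list medians. The immediate early genes have a median of 0.65 and the AP-1 targets of 1.10. Without the genes that passed the filter through the TP-472 libraries alone, these medians are 0.52 and 0.95. The small MAF partners and SRF with its cofactors hold no called gene.

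The markers of the labelled cell type were in part absent. Of 9 smooth muscle markers, ACTA2, CALD1, SMTN and TAGLN were well expressed (ACTA2 at 160.3 CPM in vehicle and 109.4 CPM with TP-472), while MYH11 and MYOCD, which define mature smooth muscle, were at most at 0.264 and 0.211 CPM in any library. DES fell by 2.36 on the log2 scale, LMOD1 fell by 1.84 and TAGLN fell by 0.67, which is 3 of 7 tested, against 14.9% of all genes called lower. DES and LMOD1 passed the filter through the vehicle libraries alone, and among the other 5 genes 1, TAGLN, fell, a call lost in the 2 alternatives with the GC trend removed. The fit without vehicle replicate 3 had 4 of the 7 called lower, ACTA2 with them, against 13.4% of all genes. VIM was the most abundant mesenchymal marker, at 2538 CPM in vehicle and 1908 CPM with TP-472, and its list held 1 gene called higher (FN1) and 2 called lower (COL1A1, COL1A2) among 6, against 12.0% and 14.9% of all genes. The COL1A1 call held in 14 of 21 alternatives, and its log2 fold change of −2.35 became −1.46 without vehicle replicate 3. Of 6 epithelial markers 3 were tested, KRT18 rose and KRT19 fell (1 of 3 each, against 12.0% and 14.9% of all genes), the latter call being lost in the 2 alternatives with the GC trend removed, and 0 of 4 endothelial markers passed the filter. The part of these marker changes in the AP-1 values was not tested, and in bulk RNA fewer cells of a kind and less RNA per cell cannot be told apart.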

How the data were processed

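RNA-seq libraries of SK-UT-1 cells (4 vehicle, 4 TP-472) were analysed from the gene table deposited by the authors. Its values are estimated counts: the authors estimated transcript abundance with Salmon 1.4.0 (submitters' processing notes, build GRCh38) and summed it by gene with tximport and a GENCODE annotation, with no normalization or filter. The methods describe strand-specific libraries, but the strand setting of the counting is not given in the sources used here. After rounding to integers, genes over 1 CPM in 4 or more libraries were tested with edgeR 4.0.16 in R 4.3.3 (TMM scaling, quasi-likelihood F test, Benjamini-Hochberg adjustment). The limits, an adjusted p under 0.05 and a fold change over 1.5, are those of the study, whose text names Student and Mann-Whitney tests for comparisons of groups in general and no tool for the calls across genes. Levels are TMM-scaled CPM, and SDs are over 4 libraries.

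Members and gene lists were chosen with earlier results of these data known. Every member is named, along with the 6 called genes of largest change in a list at most, FOS and JUN, and the 3 genes most like each member (log2 CPM, prior count 2). Other genes named (NFE2L2, BACH1, DDIT3, CEBPB, ELK4, EGR1, MMP14, MMP3, MMP13, PTGS2, CD68, NSL1, genes that overlap a member, and markers that were not called) were chosen after their values were seen. The values of some single genes and of 1 list are not reported here, although counts over lists include such genes. For CPM per kilobase, gene positions, lengths and GC content came from GENCODE on GRCh38, and 99.3% of the genes tested had a GC value. Alternatives were other scalings (RLE, upper quartile, total count), DESeq2 1.42.0, limma-voom (limma 3.58.1) with and without quality weights, other filters, robust estimation, unrounded counts, a replicate block, removal of the GC trend, and each library left out in turn on the same genes. Counting error is largest for genes with few counts, such as FOSB and BATF3 among the members and NR4A2, NR4A3, MMP1 and IL6 in vehicle. No library was a copy of another (lowest mean chi-square 11.3).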

Additional observations from a re-analysis of the deposited data

Results flagged for a closer look

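In each of the 20 groups formed by the 10 members and the 2 conditions, the most extreme library was compared with the range of its group, and 4 groups held a library that stood apart by Dixon's criterion for 4 values. Chance alone would give about 1 in 20. In vehicle, JUNB was at 71.5 CPM in replicate 3, with a gap to the next library of 0.838 of the range. JUND was at 103.6 CPM in that library (0.996 of the range) and MAFK at 14.01 CPM (0.838 of the range). BATF3 was at 10.3 CPM in TP-472 replicate 2, the highest of its group (0.889 of the range), where the other treated libraries lay between 8.56 and 8.75 CPM.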

How the results depend on the processing

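FOSL1, ATF3, BATF3 and MAFF were called higher under all 22 alternatives. The count of members called higher, 4 with all libraries, was 7 with the GC trend removed and 7 with the GC trend removed and a replicate block. Of all 14073 genes, 1897 and 1871 were called higher in these 2 settings. The count called lower, 1 with all libraries, was 2 with DESeq2 (JUND joined) and 0 with quality weights or with the GC trend removed and a replicate block. It was 0 also in 2 settings chosen after seeing the data, the GC trend removed without vehicle replicate 3 and DESeq2 without vehicle replicate 3. With each library left out in turn it ran from 0 to 1, and was 0 without vehicle replicate 3 and without TP-472 replicate 3 (FOSL2, edgeR adjusted p = 0.0511). Over all genes, 2897 of 33192 were lower with DESeq2, 1783 of 14073 with quality weights and 1848 with the GC trend removed and the block. In the 2 added settings 1794 of 14073 and 2265 of 32754 were lower. Without vehicle replicate 3 and without TP-472 replicate 3 it was 1889 and 1387 of 14073. MAFK changed sign, from −0.084 to 0.36 with quality weights, 0.44 with the GC trend removed, 0.44 with the GC trend removed and the block, and 0.41 and 0.25 in the 2 added settings, and ran from −0.21 to 0.27 with each library left out. The causes were not tested. Of all genes, 3789 were called, and between 2690 (without TP-472 replicate 3) and 4223 (without vehicle replicate 2) with 1 library left out.

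Libraries that share a replicate number did not deviate together (correlations −0.055, 0.12, −0.17 and −0.18). With 4 libraries in a group these values cannot show whether the numbers pair the samples. The replicate block gave 3055 calls, with 4 members higher and 1 lower. The largest shift of the median of all genes under another scaling was −0.030 on the log2 scale (total count). With the alternatives, the calls among other AP-1 subunits (5 to 6 tested) ran from 0 to 2 higher and 1 to 2 lower. Among the kinases (10 to 12 tested) they ran from 0 to 1 higher and 2 to 5 lower. Immediate early genes ran from 4 of 13 tested higher (5 CPM filter) to 13 of 18 (quality weights, or without vehicle replicate 3). AP-1 targets ran from 6 of 11 (5 CPM filter) to 14 of 23 (DESeq2). Over all genes, 1154 of 11067 were higher with the 5 CPM filter, 2678 of 33192 with DESeq2, 1710 of 14073 with quality weights and 1694 of 14073 without vehicle replicate 3. Among the alternatives on the same 14073 genes, calls over all genes ran from 1303 to 1897 higher and from 1387 to 2399 lower. Lower calls were 1518 of 11067 with the 5 CPM filter, 2897 of 33192 with DESeq2 and 2697 of 33192 with no filter on low counts. FOSB had no value under a 5 CPM filter. A permutation test was planned for members under the main filter and was not run, since none was.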
